A study of Mus musculus with 10 samples.

Results

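A panel of 10 genes that mark blood or lymphatic vessels was followed across sorted mouse melanoma cells: Pecam1, Cdh5, Kdr, Tek, Tie1, Emcn, Vwf, Cldn5, Prox1 and Lyve1. They were chosen by name, and their 36 transcripts were summed by gene name, giving 10 of the 34162 gene names measured. The cells came from C57BL/6:SV129 mice, from melanomas of the skin (primary) or from melanoma-bearing lymph nodes (metastatic). Fluorescence-activated sorting split each tumour type into GFP-positive cells, which the labels call cMyc high, and GFP-negative cells, called cMyc low. Skin gave 2 GFP+ and 2 GFP- libraries, and lymph node gave 3 of each, although the labels speak of triplicates. Groups are named below by tissue and sort, so that node GFP+ stands for metastatic c-Myc-high cells and skin GFP- for primary c-Myc-low cells. The labels name no antibody or marker in the sort other than GFP, give no age or sex, and do not say what drives GFP or whether replicates came from separate animals. The p-values therefore measure the spread between these samples, which may be technical. Metastatic cells came only from lymph node and primary cells only from skin, so tumour stage and tissue of origin cannot be told apart.

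Endothelial cells line every vessel, and their identity rests on a small set of adhesion proteins and receptors. VE-cadherin and claudins seal the junctions between neighbouring cells, PECAM1 sits at the same borders, and the VEGF and TIE receptor tyrosine kinases carry growth and stability signals. Lymphatic endothelium is set apart by the transcription factor PROX1 and, in many vessels, by the hyaluronan receptor LYVE1. Lymph nodes are dense in both vessel kinds and also hold high endothelial venules, through which lymphocytes enter.

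Total estimated counts per library ran from 1603012 to 6844328, and 3 counts in a library stood for 0.362 to 2.80 CPM (counts scaled to a library total of 1e6). Library totals were first corrected by the trimmed mean of M-values (TMM). Sorted skin libraries carried keratinocyte transcripts (8 genes, 20600 to 54200 CPM in sum, against 24.6 to 261 CPM in node libraries). Pigment cell markers, which check the melanoma label, summed to 569 to 2676 CPM in skin and 2719 to 19250 CPM in node libraries. Node GFP+ replicates 1 and 3 stood apart by salivary gland transcripts, at 213800 and 62380 CPM in sum against at most 655 CPM in the other 8 libraries. In these bulk libraries, fewer cells of a type and less RNA per cell cannot be told apart.

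Promoter sequences are shown for the 3 members that were both called between sites (below) and present in the RefSeq promoter table, as the stretch from 250 bases before to 50 bases after the annotated start. The table (GRCm38.p6) held 7 promoters of 6 of the 10 members. Capitals mark a match to one of 6 short motifs of factor families known in vessel cells, read on either strand. Each sequence runs 5′ to 3′ on the gene's strand.
Emcn, chr3:137340828-137341127, plus strand: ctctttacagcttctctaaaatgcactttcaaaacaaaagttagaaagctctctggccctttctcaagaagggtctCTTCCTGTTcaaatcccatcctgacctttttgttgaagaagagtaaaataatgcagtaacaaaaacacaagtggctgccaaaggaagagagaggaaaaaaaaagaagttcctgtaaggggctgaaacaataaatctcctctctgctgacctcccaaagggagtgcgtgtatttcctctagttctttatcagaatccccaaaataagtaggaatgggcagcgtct
Kdr, chr5:75978406-75978705, minus strand: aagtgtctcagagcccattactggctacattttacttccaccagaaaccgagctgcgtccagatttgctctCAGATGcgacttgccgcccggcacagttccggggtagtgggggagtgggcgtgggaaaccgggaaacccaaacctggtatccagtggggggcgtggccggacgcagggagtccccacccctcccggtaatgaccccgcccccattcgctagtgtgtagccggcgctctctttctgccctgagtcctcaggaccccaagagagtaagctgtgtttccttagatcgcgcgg
Prox1, chr1:190170778-190171077, minus strand: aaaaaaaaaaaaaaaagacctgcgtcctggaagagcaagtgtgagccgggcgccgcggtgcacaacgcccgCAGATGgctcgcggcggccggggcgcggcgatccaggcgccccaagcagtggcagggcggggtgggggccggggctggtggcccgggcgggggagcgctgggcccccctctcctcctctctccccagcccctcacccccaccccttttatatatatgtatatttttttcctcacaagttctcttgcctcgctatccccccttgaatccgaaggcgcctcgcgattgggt
Emcn carried the ETS motif ACAGGAAG and the FOX with ETS motif AACAGGAA, which overlap in the single marked stretch and are found in 3.58% and 2.65% of 32851 promoters of this length. The E-box CATCTG stood in the Kdr, Prox1 and Tie1 promoters and in 17.2% of all promoters. The SOX motif ACAAAG stood in the Tek promoter and in the promoter of a second Prox1 start, and in 18.7% of all. ACCGGAAG (2.3% of all) and ACAATG (12.6% of all) were in none of the 7. A match describes these letters and is no evidence of binding.

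Between sites, vessel markers were mostly near the counting floor in skin and measurable in most lymph node libraries. Averaged over both sort classes, 6 of the 10 members were called higher in node cells and 0 lower: Pecam1, Cdh5, Kdr, Emcn, Vwf and Prox1. Lyve1, Tie1, Tek and Cldn5 did not pass. DESeq2 called 9 of 10, all but Cldn5, and 23.6% of all genes, while limma-voom with quality weights called 2 of 10 and 11.3%. A call is an adjusted p under 0.05 from edgeR's quasi-likelihood test with Benjamini-Hochberg adjustment over all 16805 genes tested, and all 10 members were among these. Of all genes tested 13.8% were called in this comparison, 8.13% higher and 5.65% lower. The members' median log2 fold change was 4.95, against 0.28 for all genes tested. All 10 members had a positive value, as did 57.6% of all genes. With the skin groups alone, 3 of the 10 passed the expression filter, Lyve1, Pecam1 and Cldn5. The others entered this test and those within each sort class through their node counts. A positive value was thus favoured for them in advance, and the comparison with all genes is a description. The number called depended on the libraries, as did calls among all genes, 2316 in the main fit. Without node GFP- replicate 2, 1 member and 1284 genes in all were called. Members numbered 3 without node GFP+ replicate 3 (2788 genes in all) or node GFP- replicate 3 (1533). They numbered 4 without node GFP+ replicate 2 (2128) or node GFP- replicate 1 (1524), and 8 without node GFP+ replicate 1 (2151). In these fits 16364 to 16731 genes were tested. The number of members also fell without any 1 skin library, but this leaves 1 library in its group. No member's value changed sign in any of these fits.

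**Figure D1:**
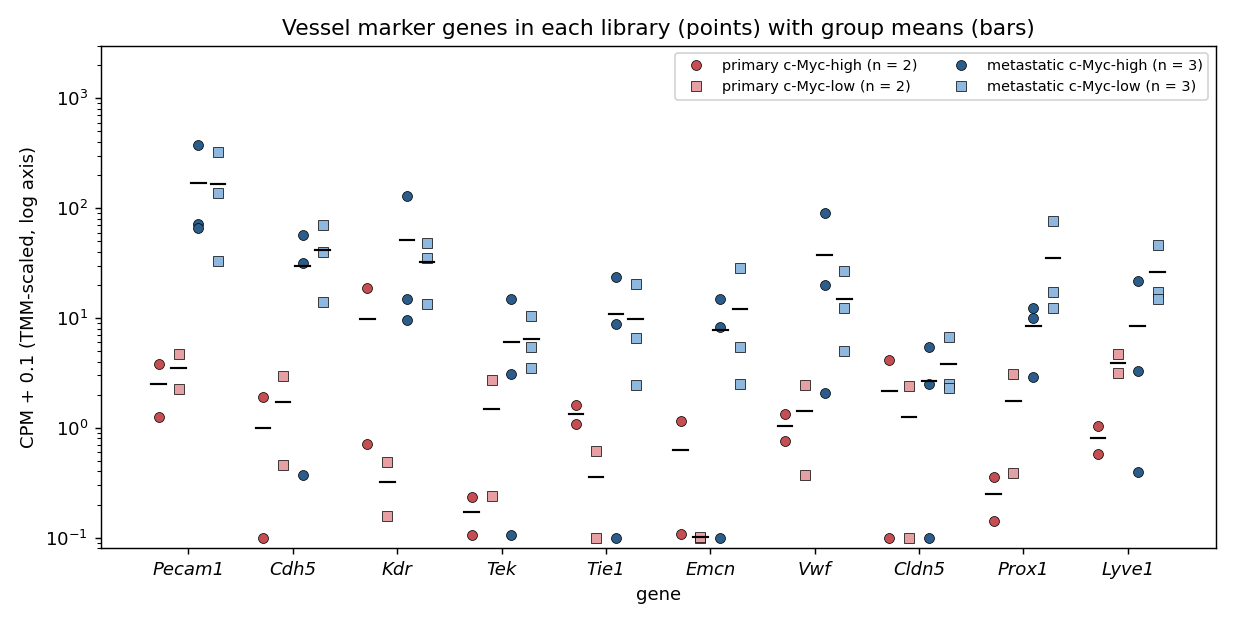
CPM + 0.1 of each of the 10 members (log axis) by group, where each point is 1 library and each bar a group mean. All members except Kdr lie under 5 CPM in the 4 skin libraries, and node GFP+ replicate 1 lies low for most members other than Pecam1.

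Of the adhesion and junction genes, Pecam1, which encodes the cell-surface protein CD31 of endothelium, platelets and many leukocytes, had the highest mean level per transcript length (RPKM, below) of the members in node cells. Its CPM was 1.14 and 3.72 in the skin GFP+ replicates and 2.17 and 4.61 in the skin GFP- replicates. It was 71.7, 373 and 66.2 in node GFP+ replicates 1 to 3, and 33.2, 138 and 324 in node GFP- replicates 1 to 3. All 6 node libraries stood above all 4 skin ones, which held for this member alone and for 5.88% of all genes tested. The log2 fold change averaged over classes was 5.93 (SE 0.99, adjusted p = 0.00308), and the ratio of mean CPM was 57.7. Pecam1 lies on chromosome 11 from 106654217 to 106750628, minus strand (GRCm38, the assembly also called mm10). Its 2 main protein-coding transcripts carried equal shares of 46.9% each, so these isoforms were not separated by the authors' assignment.

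Cdh5, which encodes VE-cadherin, the adhesion protein of endothelial junctions, measured 0 and 1.79 CPM in skin GFP+ and 0.362 and 2.88 CPM in skin GFP- replicates. It measured 0.269, 31.3 and 57.3 CPM in node GFP+ and 13.8, 40.1 and 70.0 CPM in node GFP- replicates 1 to 3. Node GFP+ replicate 1, with a single count, lay within the skin range and the other 5 node libraries lay above it. The log2 fold change was 5.11 (SE 1.48, adjusted p = 0.0406). Cdh5 (chromosome 8, 104101625 to 104144511, plus strand) overlaps the antisense gene Gm29682, and without a stated strand of counting their reads cannot be told apart.

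Cldn5, the claudin of tight junctions in endothelium, was low at both sites. Its CPM was 4.08 and 0 in skin GFP+, 0 and 2.29 in skin GFP-, 2.42, 5.30 and 0 in node GFP+, and 2.42, 6.56 and 2.21 in node GFP- replicates. The groups overlapped, with a log2 value of 0.99 (SE 1.36, adjusted p = 0.684). Emcn encodes endomucin, a sialomucin of capillary and venous endothelium. It measured 0.0078 and 1.04 CPM in skin GFP+ and 0 and 0.0017 CPM in skin GFP- replicates. It measured 0, 14.7 and 8.16 CPM in node GFP+ and 2.38, 5.34 and 28.4 CPM in node GFP- replicates. All node libraries but GFP+ replicate 1 therefore lay above the skin range. The 4 skin libraries held 1 count in all. The ratio of pooled counts was 163, with an exact 95% binomial interval of 29.1 to 6470 that covers counting error only. By mean CPM the ratio was 37.4, and the fit gave a log2 fold change of 6.74 (SE 1.94, adjusted p = 0.0425).

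Vwf encodes von Willebrand factor, a clotting protein stored in endothelium and platelets. Its CPM was 0.658 and 1.24 in skin GFP+, 0.273 and 2.36 in skin GFP-, 1.97, 19.8 and 90.3 in node GFP+, and 4.95, 12.3 and 26.8 in node GFP- replicates. Only node GFP+ replicate 1 fell within the skin range. The log2 fold change was 4.54 (SE 1.25, adjusted p = 0.0329). Of its 12 transcripts, 3 are annotated as protein-coding, and these held 15.2% of the counts. A further 12.4% lay on a transcript that is not in the annotation used here. Its values equalled those of 1 coding transcript in every library, so these 2 were not separated and the coding share may be understated. One processed transcript without a coding sequence held 32.3%, most of it from node GFP+ replicate 3. On the coding transcripts, Vwf was 0.0509 to 0.309 CPM in skin libraries, 0.243, 3.02 and 11.6 CPM in node GFP+ and 1.19, 1.56 and 4.72 CPM in node GFP- replicates. On these too, node GFP+ replicate 1 lay within the skin range and the other 5 node libraries above it.

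Among the receptors, Kdr encodes VEGFR2, the main signalling receptor for VEGF-A on endothelium. It measured 0.618 and 18.7 CPM in skin GFP+ and 0.0557 and 0.392 CPM in skin GFP- replicates. It measured 9.40, 14.8 and 130 CPM in node GFP+ and 13.3, 48.2 and 35.2 CPM in node GFP- replicates. Skin GFP+ replicate 2, the shallowest library, lay above node GFP+ replicates 1 and 2 and node GFP- replicate 1. The log2 fold change averaged over classes was 5.22 (SE 1.33, adjusted p = 0.0244).

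Tek and Tie1 encode the TIE2 receptor of angiopoietins and its partner TIE1. Tek measured 0.0066 and 0.136 CPM in skin GFP+, 0.138 and 2.64 in skin GFP-, 0.0064, 2.98 and 14.8 in node GFP+, and 3.43, 10.3 and 5.34 in node GFP- replicates. Tie1 measured 1.51 and 0.977 CPM in skin GFP+, 0 and 0.518 in skin GFP-, 0, 8.70 and 23.6 in node GFP+, and 2.36, 6.46 and 20.5 in node GFP- replicates. For both genes, node GFP+ replicate 1 lay no higher than the lowest skin library, and the other 5 node libraries lay above the highest. The log2 values were 5.05 (SE 1.91, adjusted p = 0.103) for Tek and 4.14 (SE 1.54, adjusted p = 0.0936) for Tie1, and neither passed. The protein-coding transcript of Tie1 held 55.8% of its counts, and the rest lay on 2 other transcripts, of which the larger is not in the annotation used here.

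Of the lymphatic members, Prox1 encodes the transcription factor that specifies lymphatic endothelium. It measured 0.255 and 0.0406 CPM in skin GFP+ and 3.02 and 0.289 CPM in skin GFP- replicates. It measured 2.78, 9.83 and 12.2 CPM in node GFP+ and 17.0, 76.6 and 12.3 CPM in node GFP- replicates. The single overlap between sites was skin GFP- replicate 1 with node GFP+ replicate 1. The log2 fold change was 4.85 (SE 1.16, adjusted p = 0.0183). Prox1 (chromosome 1, 190118035 to 190170714, minus strand) overlaps the antisense genes Prox1os and Gm28172, whose reads cannot be told apart from its own without strand. Lyve1, the hyaluronan receptor of lymphatic vessels and of some macrophages, measured 0.48 and 0.933 CPM in skin GFP+ and 4.58 and 3.08 CPM in skin GFP- replicates. It measured 0.299, 3.19 and 21.5 CPM in node GFP+ and 45.9, 17.3 and 14.7 CPM in node GFP- replicates. Node GFP+ replicates 1 and 2 did not exceed the highest skin value, and the log2 value of 3.18 (SE 1.15, adjusted p = 0.0864) did not pass.

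**Figure D2:**
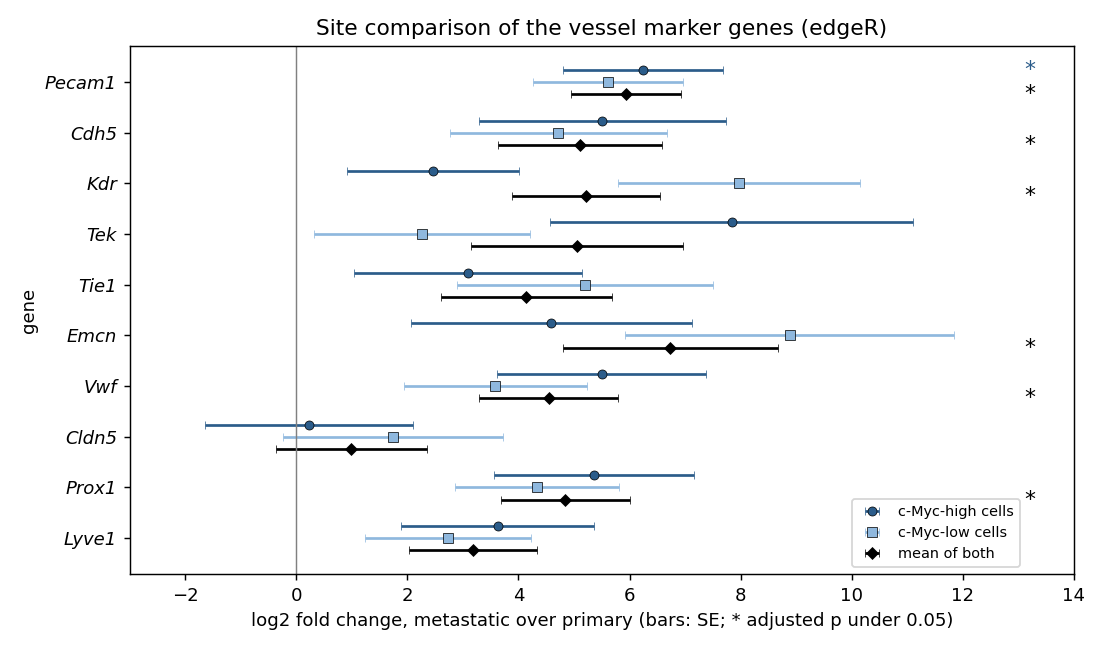
Log2 fold change (node over skin) of each member with its standard error from edgeR, for both sort classes and their mean; the vertical line is no difference and stars mark adjusted p under 0.05. All 10 points are positive in each comparison, and the widest error bar is that of Tek in GFP+ cells (SE 3.26).

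Within GFP+ cells alone, Pecam1 was the single member called of 10 (log2 fold change 6.25, SE 1.44, adjusted p = 0.0373), where 3.97% of all genes were called and 1.65% were called higher. That call was lost without skin GFP+ replicate 1 or 2, skin GFP- replicate 1 or 2, node GFP+ replicate 1 or 2, or node GFP- replicate 2 (adjusted p from 0.0537 to 0.163). It was also lost without both node GFP+ libraries rich in salivary transcripts. That fit leaves 1 node GFP+ library, so the loss of replication and the makeup of those libraries cannot be told apart. DESeq2 called 4 of 10, with 19.3% of all genes, and limma-voom with quality weights called 0 of 10, with 0.988%. At an unadjusted p under 0.05 in edgeR, 5 of 10 passed, against 26.3% of all genes. Pecam1, Prox1 and Vwf, 3 of the 10, did not overlap between the groups and were higher in node cells, as were 17.4% of all genes. Tek had 0 counts in the skin GFP+ libraries after rounding. Its node mean was at least 10.3-fold higher against a floor of 3 counts over the group, a bound on the mean only. Node GFP+ replicate 1, at 0.0064 CPM, lay below both skin GFP+ libraries, and Tek did not pass edgeR's test (adjusted p = 0.164). Other ratios of pooled counts rested on 1 to 3 skin counts. They were 65.9 for Cdh5 (exact 95% binomial interval 18.1 to 547) and 40.6 for Prox1 (7.09 to 1620). For Emcn the ratio was 43.6 (7.62 to 1740) and for Lyve1 9.74 (3.17 to 48.6). These intervals leave out the spread between libraries, and none of these genes passed edgeR's test. The members' median log2 value was 4.98, or 4.11 with Tek at its bound, against 0.38 for all genes, and all 10 were positive, as were 56.7% of all genes.

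Within GFP- cells, 0 of 10 members were called by edgeR, where 2.11% of all genes were called. At an unadjusted p under 0.05, 7 of 10 passed, against 15.1% of all genes. DESeq2 called 5 of 10 (10% of all genes) and limma-voom with quality weights 10 of 10 (23.5%). Pecam1 came nearest in edgeR, with a log2 value of 5.61 (SE 1.35, adjusted p = 0.0580). In all, 9 members did not overlap between the groups and were higher in node cells, Cldn5 being the exception, as were 25.2% of all genes. By pooled counts, Kdr gave a ratio of 374 (exact 95% binomial interval 66.9 to 14800) against 1 skin count. Tie1 gave 50 (13.6 to 416) against 2 skin counts. The ratios of mean CPM were 144 and 37.7, and the intervals cover counting error only. Emcn, at 0 rounded counts in skin GFP- cells, was at least 47.2-fold higher against 3 counts over the group. The members' median was 4.53, also with Emcn at its bound, against 0.0987 for all genes, and all 10 were positive, as were 53.8% of all genes. Whether the site difference differed between sort classes was tested as an interaction: edgeR called 0 of 10 members and 0 genes in all. Kdr had an unadjusted p = 0.0404 (log2 difference -5.51, SE 2.40, adjusted p = 0.724), the single member of 10 under 0.05, against 6.84% of all genes. DESeq2 called 0 members in the interaction and 0.5% of all genes.

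Compared by sort class, no member was called in skin cells, in node cells or over both sites, and edgeR called 0 of all 16805 genes in each. At an unadjusted p under 0.05, 1 of 10 members passed in skin cells (11.6% of all genes), 0 in node cells (4.8%) and 2 over both sites (12.9%). DESeq2 called Kdr in skin cells (2.37% of all genes) and over both sites (2.98%), and 0 members in node cells (0.512%). For Kdr, the GFP+ minus GFP- log2 difference was 6.17 (SE 2.13, adjusted p = 0.419) in skin cells and 3.42 (SE 1.22, adjusted p = 0.310) over both sites. The skin values rested on 23 counts against 1, of which 20 counts came from GFP+ replicate 2, and Kdr did not pass the expression filter with the skin groups alone.

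Prox1 and Lyve1 had negative values at each site (GFP+ minus GFP-), as did Cdh5 and Tek, making 4 of 10, and none passed. The sign of Tek in node turned with DESeq2's size factors (0.063), and that of Cdh5 turned at each site when single libraries were left out. In all, 6 of 10 members were negative in skin and 6 of 10 in node, against 52.6% and 49.9% of all genes. The list of 11 other lymphatic genes had medians of 0.94 in skin and -0.62 in node, with 0 called. For Prox1 the log2 difference was -3.12 in skin cells (adjusted p = 0.491) and -2.10 in node cells (SE 1.12, adjusted p = 1). Its node values, 2.78 to 12.23 CPM in GFP+ and 12.28 to 76.6 CPM in GFP- replicates, did not overlap by a small margin, as for 7.74% of all genes in that direction. For Lyve1 it was -2.56 in skin cells (adjusted p = 0.558) and -1.66 in node cells (adjusted p = 1), and the node groups overlapped. In skin cells 3 members did not overlap in each direction, with Kdr, Tie1 and Emcn higher and Tek, Prox1 and Lyve1 lower in GFP+ cells. Of all genes, 11.3% and 30.2% did so in these directions. These orders rest on very low counts: Emcn had 0.0325 and 1.12 estimated counts against 0 and 0.0059, and Tek 0.0275 and 0.146 against 1.14 and 9.13. With the skin groups alone, 3 of the 10 members passed the expression filter, Lyve1, Pecam1 and Cldn5, and the others were tested in skin through their node counts.

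Levels of different genes were set side by side as RPKM, reads scaled to transcript length and library size, summed over transcripts. In node GFP- cells Pecam1 stood highest, at 11.7 ± 7.39 RPKM (SD, n = 3). Lyve1 (2.77 ± 2.38 RPKM), Cdh5 (2.34 ± 1.14), Vwf (1.92 ± 1.54), Emcn (1.71 ± 1.91), Kdr (1.40 ± 0.721) and Prox1 (1.23 ± 1.24) followed (SD, n = 3 each), and neighbours among these did not differ beyond their spread. Cldn5 (0.684 ± 0.483 RPKM), Tie1 (0.511 ± 0.375) and Tek (0.373 ± 0.209) stood lowest (SD, n = 3 each). In node GFP+ cells Pecam1 measured 11.3 ± 12.8 RPKM (SD, n = 3) and Vwf 2.53 ± 2.81 (SD, n = 3). The other 8 members ranged there from 0.141 RPKM for Tek to 0.989 for Cdh5 as means. The RPKM and CPM of Vwf ran in opposite order in node GFP+ replicates 2 and 3, at 5.59 and 1.93 RPKM against 19.8 and 90.3 CPM. In replicate 2 the largest share of its counts lay on a short processed transcript, which weighs more in RPKM. Protein-coding transcripts held 15.2% of Vwf counts, so its summed RPKM does not rank it by coding transcript. No member's mean exceeded 0.326 RPKM in a skin group.

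The makeup of the vessel signal differed between node libraries. Pecam1 made up 80.7%, 77.1% and 15.6% of the members' summed CPM in node GFP+ replicates 1 to 3, and 23.9%, 38.3% and 60.1% in node GFP- replicates 1 to 3. Without Pecam1 the other 9 members summed to 17.1, 111 and 357 CPM in the former and 106, 223 and 216 CPM in the latter, against 7.61 to 24.9 CPM in skin libraries. Node GFP+ replicate 1 thus lay within the skin range once Pecam1 was set aside. That library had 3 members with 10 or more counts, where the other 5 node libraries had 9 or 10 and the skin libraries 1 to 3.

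Pan-leukocyte markers, like Pecam1, were higher in node cells. All 8 markers rose in the mean site comparison, and they summed to 11.6, 26.0, 8.34 and 20.4 CPM in the skin libraries. In node GFP+ replicates 1 to 3 they summed to 1009, 3972 and 129 CPM, and in node GFP- replicates 1 to 3 to 284, 1292 and 2628 CPM. The 4 node libraries with the highest leukocyte sums were also the 4 with the highest Pecam1, in the same order. The rest went the other way: Pecam1 was 66.2 CPM in node GFP+ replicate 3 and 33.2 CPM in node GFP- replicate 1. Node GFP+ replicate 3 had the lowest leukocyte sum of the node libraries and the second highest Cdh5. B cell markers rose in 6 of 6 (0.0185 to 7.54 CPM in sum in skin, 80.2 to 2324 in node libraries) and T cell markers in 5 of 6 (0.441 to 13.4 against 50.8 to 519). Some of these genes had few or no skin counts, so a positive value was favoured for them in advance. The part of leukocytes in the Pecam1 result was not tested.

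Other cell types that share these markers were also measured. Platelet and megakaryocyte markers, of which 9 were listed and 2 passed the expression filter, summed to at most 10.7 CPM in any library, and Gp9 was at 0 in all. In the 6 node libraries they summed to 3.34 to 10.7 CPM, and their part in the Vwf and Pecam1 values was not tested. Macrophage markers, 8 tested and 0 called, summed to 2.98 to 99.9 CPM in skin and 15.6 to 245 CPM in node libraries, and their part in the Lyve1 values was not tested. Of 9 pericyte and smooth muscle markers tested, Notch3, a receptor of mural cells, had a log2 change of -4.33 (adjusted p = 0.000499), and 0 rose. The list as a whole did not go the same way: 8 of its 9 values were positive, without passing, and the median was 2.73. Fibroblast markers (0 of 8 called, 172 to 5288 CPM in skin and 68.4 to 678 in node libraries) and erythrocyte markers (0 of 4 called) did not pass. The highest fibroblast sum, 5288 CPM, was in skin GFP+ replicate 2, which also had the highest skin Kdr value. That library had the highest skin macrophage and erythrocyte sums as well (99.9 and 1541 CPM), and a link with Kdr was not tested. Of 9 salivary gland genes 4 rose, of 7 pigment cell genes 3 rose, and of 8 keratinocyte genes all fell.

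**Figure D3:**
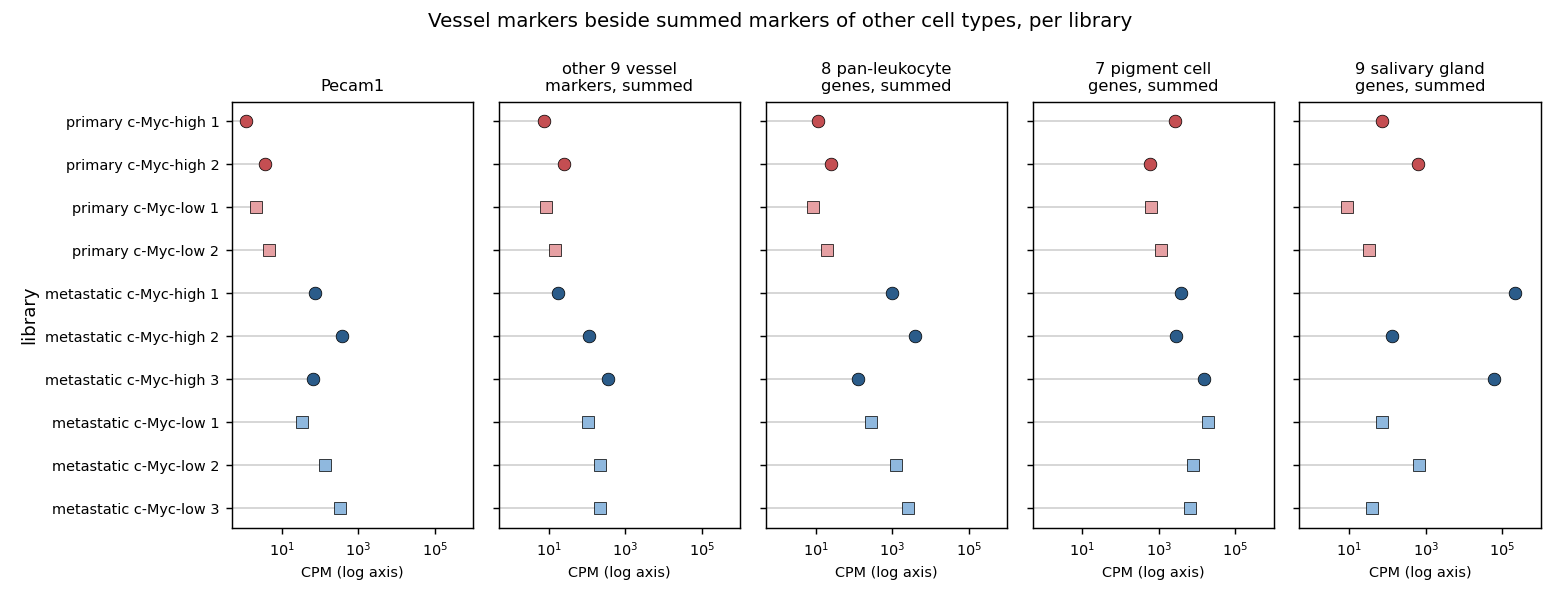
CPM (log axis) of Pecam1, of the other 9 members in sum, and of the summed pan-leukocyte, pigment cell and salivary gland markers; each point is 1 library. The pan-leukocyte sum runs from 8.34 to 26.0 CPM in skin and from 129 to 3972 CPM in node libraries.

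Further genes of the vessel wall, from lists drawn up by role, were examined in the mean site comparison. Some, such as Hhex and Glycam1, had few or no skin counts and entered the test through their node counts. As for the members, a positive value was favoured for such genes in advance, so the list counts and medians are a description. Among 11 tested VEGF, angiopoietin and Notch ligands and related peptides, 1 rose and 2 fell, with a median log2 value of 1.44. Vegfb, a ligand of VEGFR1, rose by 3.21 (SE 0.95, adjusted p = 0.0439), from 14.4 ± 13.1 CPM (SD, n = 4) to 97.4 ± 34.5 CPM (SD, n = 6). Figf, which encodes VEGF-D, fell by 3.96 (SE 1.17, adjusted p = 0.0431), and the Notch ligand Jag1 fell by 3.30 (SE 0.62, adjusted p = 0.00577). Receptors rose in 6 of 19, with 0 lower and a median of 3.59. S1pr1, a sphingosine-1-phosphate receptor of endothelium and lymphocytes, went from 0.572 ± 0.617 CPM (SD, n = 4) to 55.6 ± 26.0 CPM (SD, n = 6), and it rose by 6.61 (SE 0.95, adjusted p = 0.00129) without overlap between the sites. Flt4, which encodes VEGFR3 of lymphatic endothelium, rose by 5.57 (SE 1.19, adjusted p = 0.0107). Its values were 0 to 0.970 CPM in skin and 7.0 to 30.1 CPM in node libraries, with no overlap. Eng, a TGF-beta co-receptor, rose by 3.10 (adjusted p = 0.0163) and Nrp1, a co-receptor of VEGF, by 3.70 (adjusted p = 0.0178). Ptprb, the phosphatase VE-PTP, rose by 5.18 (adjusted p = 0.0442) and the apelin receptor Aplnr by 6.8 (adjusted p = 0.0464).

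Of 15 transcription factors 9 rose and 2 fell (median 5.70). Mef2c, a factor of muscle, endothelium and B cells, rose by 6.09 (SE 0.78, adjusted p = 0.000567), and the ETS factors Ets1 and Fli1, shared by endothelium and lymphocytes, by 3.82 and 5.71 (adjusted p = 0.00422 and 0.00778). Hhex had 0 rounded counts in the skin libraries and 1.22 to 39.3 CPM in the node ones (adjusted p = 0.00889). Klf4, a factor of epidermis and endothelium, fell by 3.17 (adjusted p = 0.0061), and Sox7 fell by 4.70 (adjusted p = 0.00738), so this list did not move one way. Junction and surface genes rose in 8 of 18 with 0 lower (median 3.98). Egfl7, a secreted endothelial protein, rose by 8.11 (SE 1.57, adjusted p = 0.00805), Cd93 by 3.84 (adjusted p = 0.00826), and Plvap, the diaphragm protein of fenestrae, by 6.41 (adjusted p = 0.0103). Clec14a, Mmrn2 and Podxl were also called higher, at adjusted p = 0.0185, 0.0184 and 0.019.

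Lymphatic genes rose in 5 of 11 with 0 lower (median 5.21). Besides Flt4 these were Stab2, Reln, Nr2f2 and the chemokine gene Ccl21a. Stab2, a hyaluronan scavenger receptor of sinusoids, rose by 6.75 (SE 1.35, adjusted p = 0.00911). Reln, the secreted protein reelin, rose by 8.03 (SE 1.71, adjusted p = 0.0125). Nr2f2 and Ccl21a rose by 5.96 and 5.21 (adjusted p = 0.0154 and 0.0239). Reads of Ccl21a can be shared with near-identical copies. Postcapillary and high endothelial venule genes rose in 4 of 11 with 0 lower (median 4.07). Glycam1, a ligand of L-selectin made by high endothelial venules, measured 0, 0, 0 and 2.14 CPM in the skin libraries. It measured 38.4, 191 and 248 CPM in node GFP+ and 14.8, 118 and 252 CPM in node GFP- replicates 1 to 3, with no overlap (log2 fold change 9.86, SE 1.69, adjusted p = 0.00441). Lrg1, Enpp2 and Vcam1 also rose, by 7.11, 3.47 and 3.52 (adjusted p = 0.0094, 0.0204 and 0.0476). No gene of these 6 lists was called between sort classes, where edgeR called 0 of all 16805 genes tested.

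**Figure D4:**
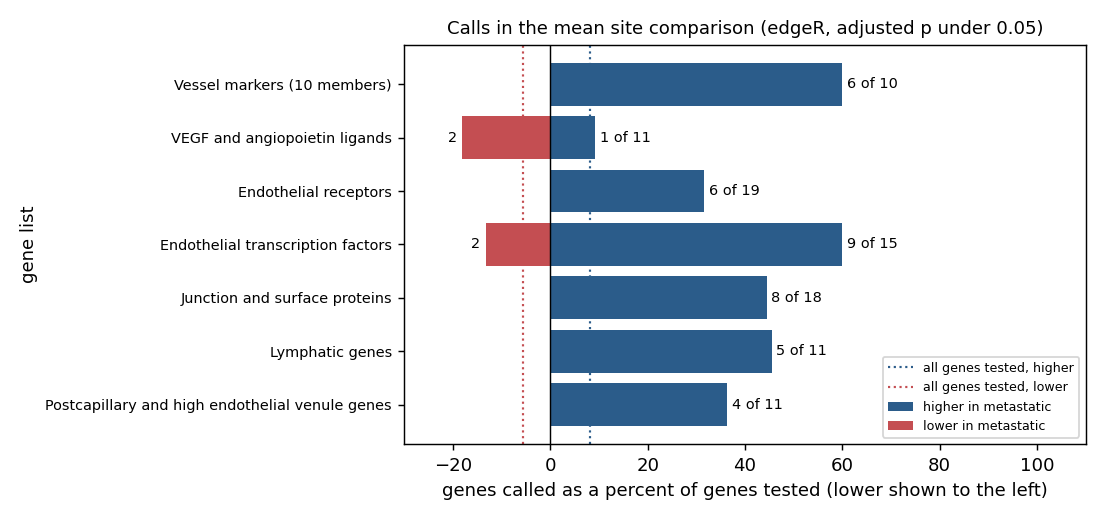
Share of the tested genes of each list called higher or lower in node cells (mean over sort classes, edgeR, adjusted p under 0.05), beside the members; lower calls run to the left, and dotted lines give all genes tested. The members' 6 of 10 stand beside 8.13% of all genes called higher. Members and listed genes with few skin counts were tested through their node counts, so this is a description.

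The genes whose log2(CPM + 1) followed the summed members most closely over the 10 libraries were Fli1 (Pearson r = 0.982), Rassf2 (0.981), Slc43a3 (0.969), Glycam1 (0.968), Pik3cd and Atp8b4 (0.966 each), Ccr6 and Akna (0.965 each), Spn (0.963) and Themis2 (0.961). These libraries share the difference between sites and, within each, the depth, so the r is a description only. The sum is led by Pecam1 in several libraries. When Cdh5 alone was used, a choice made after the values were seen, the closest named genes were Ptprb (0.970), Ecscr (0.966), Arap3 (0.962), Ccl21c (0.961, a near copy of Ccl21a), Ramp2 (0.956), Erg (0.955), Galntl2 and Sema7a (0.953 each). No gene was on both lists.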

How the data were processed

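RNA from 10 sorted samples was amplified and sequenced on an Illumina HiSeq instrument, per the labels' protocols, with RNAqueous-Micro extraction and Ovation kits. The authors deposited 1 table of 92214 transcripts with estimated counts, not scaled between libraries, and RPKM, scaled by the authors for transcript length and depth. Bowtie2, limma and the mm10 build are named, per the submitters' processing notes. The counting program, annotation and strandedness were not stated in the sources used here.

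Estimated counts were summed by gene name, rounded, and tested with edgeR 4.0.16 in R 4.3.3 (TMM, default expression filter, robust quasi-likelihood, all 4 groups in 1 fit, no covariate), with a common biological coefficient of variation of 0.876. Standard errors were derived from the F statistic. Contrasts were site within each class and averaged, class within each site and averaged, and their interaction. Alternatives used DESeq2 1.42.0, limma 3.58.1 (voom, and trend on log2(RPKM + 1) or log2(RPKM + 0.1)), other scalings and filters, and left-out libraries. Scripts were tested on simulated data. Ratios and floors (3 counts over a group) cover counting error only. No molecular identifiers are named in the labels. Correlations of log CPM between replicates ran from 0.587 to 0.914, and no 2 libraries agreed within sampling noise (chi-square per degree of freedom 44.7 to 222).

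Members and gene lists were chosen with earlier results of these data known. From each list the 3 genes with the lowest p and up to 6 called genes were named, with 10 genes of most similar profile and abundant markers. Predicted genes were counted, not named. Positions come from GENCODE M21 on GRCm38, which held 95.7% of deposited transcripts and 34 of 36 member transcripts.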

Additional observations from a re-analysis of the deposited data

How the results depend on the processing

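No member's metastatic over primary value, averaged over c-Myc classes, changed sign in any alternative. Pecam1 was called in 21 of 21 alternatives, Kdr in 15 of 21, Prox1 in 13 of 19, Vwf in 8 of 21, Cdh5 in 7 of 21 and Emcn in 6 of 21. The members called, 6 in that comparison, numbered 3 with the most abundant transcript per gene, 9 with DESeq2, 2 with limma-voom, 2 with the replicate number as a block, and 3 in the 8 deepest libraries. On RPKM, where 6 members passed the filter, limma-trend called 1 with a pseudocount of 1 and 3 with 0.1. Leaving out 1 library at a time gave 1 to 8. Among all genes the calls were 2316, against 3963 with DESeq2, 936 and 1480 with RPKM at pseudocounts of 1 and 0.1, 965 with the replicate block, 4188 in the 8 deepest libraries, and 722 to 2788 with 1 library left out. Scaling by library size alone moved the median log2 value of all genes from 0.28 to 0.50, and in c-Myc-high cells turned 278 higher and 389 lower genes into 358 and 335 (2002 and 1246 with DESeq2). The 6 called members stayed positive under each scaling. With the most abundant transcript 1780 genes were called in the mean site comparison, and with limma-voom 1900. In c-Myc-high cells, the call was lost without both libraries rich in salivary transcripts, a fit that leaves 1 metastatic c-Myc-high library. The 1 member called became 4 with DESeq2. It became 0 with the most abundant transcript, with RPKM at a pseudocount of 1 and with limma-voom. The number was also 0 with only the 2 groups compared and with the replicate block. With 1 library left out it was 0 to 1. Among all genes in c-Myc-high cells, 667 calls became 335 with the most abundant transcript, 108 with RPKM at a pseudocount of 1 and 166 with limma-voom. They became 155 with only the 2 groups and 150 with the replicate block. In c-Myc-low cells, the 355 calls among all genes became 1687 with DESeq2, 3944 with limma-voom and 2276 with only the 2 groups. They became 774 without the low-count filter, 391 with library size alone and 428 with RPKM at a pseudocount of 0.1. Members called there went from 0 to 5 with DESeq2, 10 with limma-voom, 5 with only the 2 groups and 2 without the low-count filter. The number was 1 with library size alone and with RPKM at a pseudocount of 0.1. With 1 library left out it was 0 to 1. Between classes, DESeq2 called 1 member in primary cells and 1 over both sites. The cause of these differences was not tested. Where a left-out library leaves 1 sample in a group, it is assumed to vary like the others. The alternatives without the salivary-rich libraries and with the 8 deepest were chosen after seeing the data.

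Cldn5, not called, changed sign in c-Myc-high cells to -0.18 with limma-voom, -0.21 with the replicate block and -0.058 in the 8 deepest libraries, and ranged from -0.90 to 6.68 with 1 library left out. Kdr between classes over both sites went from 3.42 to -0.14 and -0.037 on RPKM with pseudocounts of 1 and 0.1. Same-numbered libraries did not clearly deviate together (13 pairs, r from -0.305 to 0.153, 3 above 0.1). The highest r between groups, 0.556, joined metastatic c-Myc-high replicate 2 and metastatic c-Myc-low replicate 3. With 2 or 3 libraries in a group, these values cannot tell whether the numbers pair samples. Depth limits what can be said of skin cells: at most 3 of 10 members reached 10 counts in a primary library.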

Other observations

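Flt1, which encodes VEGFR1 and is not among the 10 vessel markers, measured 878 CPM in primary c-Myc-high replicate 1, against 0.0222 to 44.2 CPM in the other 9 libraries. It was singled out after its values were seen, and in the same library the 9 vessel markers other than Pecam1 summed to 7.61 CPM.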
